A study of Mus musculus with 12 samples.

Results

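The hippocampus libraries were read for 9 microglia marker genes chosen by name: Aif1, Cx3cr1, Csf1r, Itgam, P2ry12, Trem2, Tyrobp, Cd68 and Tmem119. All 9 were found among the 23361 gene names of the deposited data, and each was represented by its transcript with the highest summed signal. SAGE-Seq, which counts a short tag beside an NlaIII site of each polyadenylated RNA, had been applied to 12 libraries, each from 1 hippocampus of 1 animal. The mice were wild-type C57/BL6 males in 4 groups of 3 libraries. Aged EE mice were labelled as 14 to 17 months old and lived in an enriched environment, in larger cages with wheels, tunnels and objects that were changed weekly. Aged SH mice were of the same age range in standard housing, and young EE and young SH mice were labelled as 5 to 6 months old in the same kinds of cages. The paper states a slightly narrower range for the aged mice, as of the start of the experiments. Age when tissue was taken is not stated. All had been trained in the water maze as members of the same cohort, so no group was naive to learning, and tissue was taken weeks after the last test. The design asks how housing and age, and the combination of housing with age, bear on hippocampal transcripts.

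Microglia are the resident macrophages of the brain, and they depend on signals through the receptor Csf1r for survival. In the undisturbed brain they carry receptors for neuronal and nucleotide signals, such as Cx3cr1 and P2ry12, and they survey their surroundings with mobile processes. In aging and in neurodegeneration they are known to shift toward a program in which the lipid receptor Trem2 and its adaptor Tyrobp take part. The tissue was whole hippocampus, so fewer microglia and less RNA per microglial cell cannot be told apart here.

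Because a SAGE library holds nominally 1 tag per molecule, the levels below were not divided by transcript length. The tags expected of the members are shown because they set which part of each messenger the counts come from. Each is the most 3′ NlaIII site of the gene model nearest to the counted transcript, with the bases that follow it in the NCBIM37 (mm9) transcripts of GENCODE, 27 bases in all. Capitals mark the NlaIII site.
P2ry12: CATGtgtataatattaaaatgcattta
Cx3cr1: CATGgttaagcgtgcctagagtgtgtc
Tmem119: CATGtggggcgaggggagtgagcagaa
Itgam: CATGcgacagtgaaaaccaaggcaaag
Trem2: CATGctctcccctcctccaccaagact
Tyrobp: CATGggggctctggagccctcctggtg
Aif1: CATGgaaaaaagaaacagtcgtgagcc
Cd68: CATGtttctcttgcaaccgtgaccagt
Each of these 8 tags occurred in the coding transcripts of 1 gene. In 6 genes the tag lies in the 3′ UTR, while Tyrobp has a single NlaIII site, at the junction of 5′ UTR and coding sequence, 514 bases from the 3′ end. The Cd68 tag lies in coding sequence and crosses an exon junction, so that it has no exact copy in the genome. A longer Cd68 model runs 158 bases past the counted 3′ end and carries 2 further NlaIII sites there. The longest Itgam model runs 9669 bases past the counted end, with 5 further sites. Which tag of each gene entered the counts is not given in the sources used here, and its part in the levels was not tested. No sequence is shown for Csf1r.

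The counted transcripts lie on the mm9 build at 3:59020193-59066753 (P2ry12, minus strand), 9:119957811-119977400 (Cx3cr1, minus), 5:114243738-114250361 (Tmem119, minus) and 7:135206154-135262005 (Itgam, plus). Trem2 lies at 17:48485726-48491598 (plus), Tyrobp at 7:31198807-31202598 (plus), Aif1 at 17:35307937-35312946 (minus) and Cd68 at 11:69477873-69479564 (minus). Itgam stood in 2 rows with identical values, and 1 was used.

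Library totals ranged from 6928733 to 16035094 reads. Levels are given as RPM, the reads of a gene scaled to 1000000 reads of the library total scaled by TMM, which corrects for the bulk of the genes. The tissue label was checked on lists of markers, and all 10 hippocampal excitatory neuron markers were measured, with summed levels of 184.5 to 411.5 RPM. Bok, Neurod6 and Fibcd1 were the highest of them. Of border macrophage markers, which are genes of macrophages at the brain's surfaces, 5 of 9 were high enough to be tested, and their list summed to 3.599 to 9.29 RPM, against 89.7 to 135.2 RPM for the microglia markers. Of 13 blood leukocyte genes found, Cd3d and Ms4a1 were at 0 reads in all libraries. A score of dorsal minus ventral hippocampus markers set 4 libraries apart, numbers 1 and 3 of aged EE and of young SH, at 1.52 to 2.00 log2 units against -1.02 to -0.10 in the other 8. Aged EE library 3 stood apart in choroid plexus genes, at 1000 RPM against 66.6 to 137.7 RPM in the other libraries.

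P2ry12 was the most abundant member, at 54.0 ± 9.40 RPM (SD, n = 12), followed by Csf1r at 18.95 ± 2.99 RPM. Tyrobp averaged 12.05 ± 3.50 RPM, Trem2 10.7 ± 3.02 RPM and Aif1 9.14 ± 3.07 RPM, and these neighbours differed by less than their SDs. Tmem119 averaged 4.24 ± 1.79 RPM, Cx3cr1 3.15 ± 2.10 RPM and Itgam 1.69 ± 0.849 RPM, and Tmem119 and Cx3cr1, like Cx3cr1 and Itgam, differed by less than the larger SD of the pair. Cd68 was lowest, at 0.687 ± 0.950 RPM, and was the only member that did not pass the filter on low counts. Relative spread over the 12 libraries went from 15.8% (Csf1r) and 17.4% (P2ry12) to 66.7% (Cx3cr1) and 138% (Cd68). Counting error alone would give 6.52% for Csf1r, 3.85% for P2ry12, 15.9% for Cx3cr1 and 33.6% for Cd68. Reads carry no molecular identifiers, so these values cover counting error only. Summed over the 9 members the level was 119.5 ± 14.3 RPM in aged EE and 112.6 ± 10.4 RPM in aged SH, and 110.8 ± 12.6 RPM in young EE and 115.5 ± 23.3 RPM in young SH (SD, n = 3 each), with P2ry12 giving 38.1 to 57.3% of each sum.

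**Figure D1:**
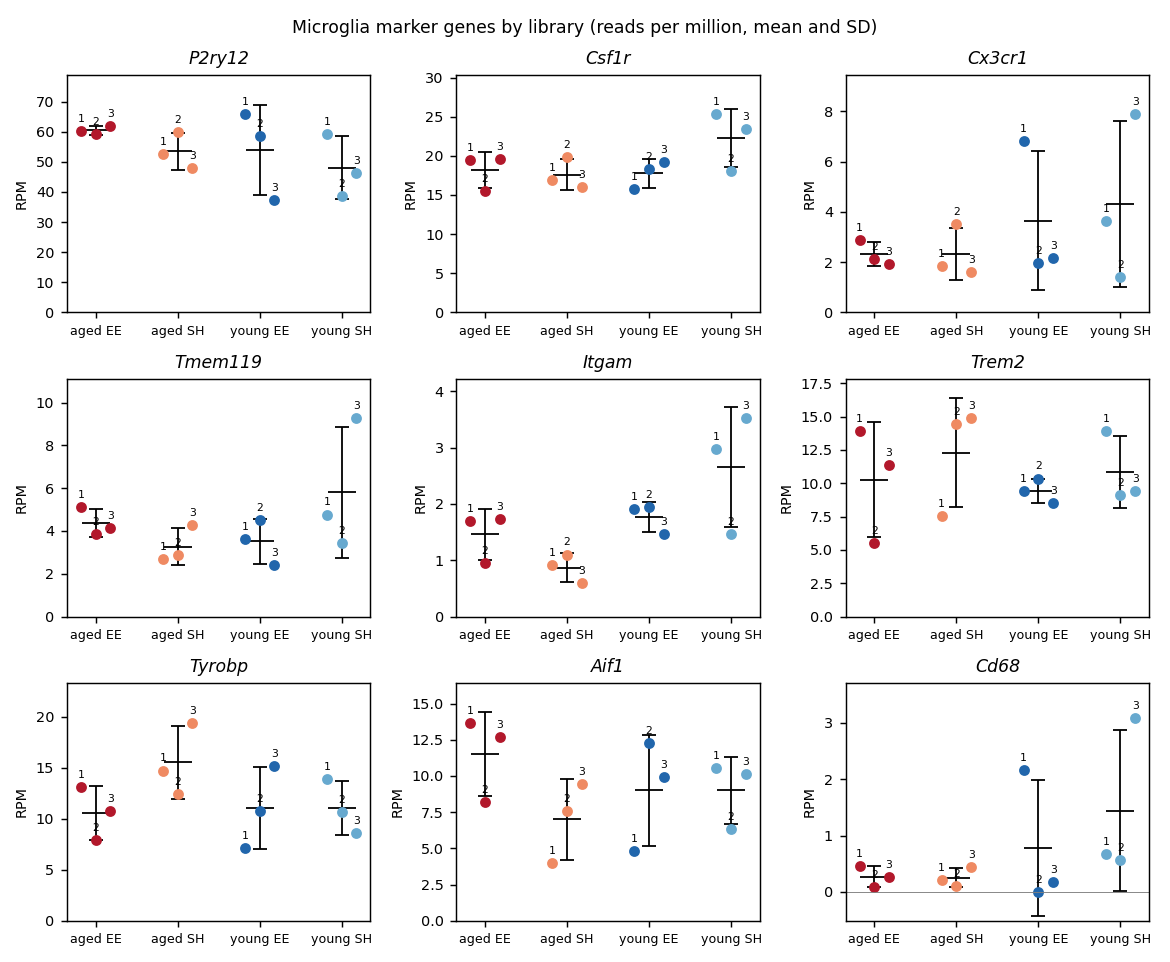
Levels of the 9 microglia markers in RPM (y axis, linear) in each library (numbered points), by group (x axis), with the mean and SD of 3 libraries. P2ry12 lay between 37.25 and 65.9 RPM in all libraries, while Cx3cr1 and Cd68 were highest in young EE library 1 and young SH library 3.

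P2ry12, the ADP receptor that guides microglial processes, had 60.3, 59.2 and 62.0 RPM in the aged EE libraries, against 52.6, 60.0 and 47.8 RPM in aged SH. It had 65.9, 58.6 and 37.25 RPM in young EE, against 59.4, 38.6 and 46.4 RPM in young SH. The aged EE libraries lay within 3 RPM of each other and overlapped with every other group. Csf1r, the receptor for the survival factors Csf1 and Il34, had 19.4, 15.5 and 19.6 RPM in aged EE, against 16.9, 19.8 and 16.04 RPM in aged SH. It had 15.7, 18.4 and 19.2 RPM in young EE, against 25.3, 18.1 and 23.4 RPM in young SH. Young SH libraries 1 and 3 were the highest of all, and library 2 of that group lay among the others.

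Cx3cr1, the receptor for the neuronal chemokine Cx3cl1, had 2.86, 2.14 and 1.94 RPM in aged EE, against 1.84, 3.52 and 1.62 RPM in aged SH. It had 6.84, 1.95 and 2.15 RPM in young EE, against 3.65, 1.40 and 7.89 RPM in young SH. A single library in each young group was high, and the remaining young libraries lay within or just outside the aged range. Tmem119, a membrane protein that marks microglia among brain macrophages, had 5.11, 3.86 and 4.15 RPM in aged EE, against 2.69, 2.86 and 4.27 RPM in aged SH. It had 3.615, 4.51 and 2.403 RPM in young EE, against 4.77, 3.42 and 9.26 RPM in young SH. Young SH library 3 was again the highest, and the groups overlapped.

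Itgam, the alpha subunit of complement receptor 3 (CD11b), had 1.70, 0.943 and 1.74 RPM in aged EE, against 0.920, 1.101 and 0.589 RPM in aged SH. It had 1.91, 1.95 and 1.46 RPM in young EE, against 2.98, 1.47 and 3.52 RPM in young SH. All aged SH libraries lay below all young SH libraries. These values rest on 4 to 41 reads per library.

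Trem2, the lipid-sensing receptor, had 13.9, 5.48 and 11.4 RPM in aged EE, against 7.575, 14.4 and 14.9 RPM in aged SH. It had 9.40, 10.35 and 8.498 RPM in young EE, against 13.9, 9.15 and 9.435 RPM in young SH. Aged libraries spread more widely than young EE libraries, and no groups were apart. Tyrobp, the adaptor through which Trem2 signals, had 13.15, 7.88 and 10.8 RPM in aged EE, against 14.7, 12.45 and 19.4 RPM in aged SH. It had 7.165, 10.7 and 15.2 RPM in young EE, against 13.9, 10.7 and 8.58 RPM in young SH. Aged SH held the highest library and the highest mean, but its lowest library lay below the highest of every other group.

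Aif1, which encodes the calcium-binding protein Iba1 used to stain microglia, had 13.7, 8.23 and 12.7 RPM in aged EE, against 3.965, 7.60 and 9.42 RPM in aged SH. It had 4.80, 12.3 and 9.96 RPM in young EE, against 10.6, 6.35 and 10.1 RPM in young SH. Aged EE libraries 1 and 3 were the highest of all 12, and aged EE library 2 lay below the highest aged SH library. Cd68, a lysosomal glycoprotein of phagocytes, had 6, 1 and 4 reads in aged EE, against 3, 1 and 3 reads in aged SH. It had 33, 0 and 2 reads in young EE, against 9, 8 and 36 reads in young SH. Young EE library 1 and young SH library 3 held 69 of its 106 reads, or 65.1%, and the most in any other library was 9. The 0 reads of young EE library 2 allow a level of up to 0.233 RPM. Without the filter, its log2 fold change for aged SH against young SH was -1.66 ± 0.86 (SE), with an adjusted p of 0.368 from limma.

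To ask whether housing changed the members in aged mice, aged EE was compared with aged SH in 1 limma fit of all 12 libraries and 13138 genes. Fold changes are on the scale of log2 of scaled reads plus 2, which understates the change of low genes. None of the 8 tested members passed an adjusted p of 0.1, none had an unadjusted p under 0.05 and none had libraries that did not overlap. Over all genes 0.00761% passed, 8.90% had an unadjusted p under 0.05 and 17.1% did not overlap. The edgeR quasi-likelihood and likelihood ratio tests and DESeq2 also called no member, and none had an unadjusted p under 0.05 by them. Aif1 had the largest difference, 0.76 log2 units higher in aged EE (95% CI -0.11 to 1.63, adjusted p = 0.594), and Tyrobp the lowest value, at -0.55 (95% CI -1.22 to 0.11, adjusted p = 0.615). The intervals of Csf1r (-0.36 to 0.44) and P2ry12 (-0.30 to 0.66) were the narrowest. Of the 8 members 6 had a value above 0, against 52.6% of all genes, with a median of 0.12 against 0.02 over all genes. Some other lists lay mostly to 1 side, with 9 of 10 hippocampal excitatory neuron markers (median 0.89) and 7 of 7 choroid plexus genes (median 1.37) above 0. Of 15 ventral hippocampus markers 12 were below 0 (median -0.64), and no gene of these lists was called. The excitatory neuron list summed to 343.4 to 411.5 RPM in aged EE, against 215.6 to 261 RPM in aged SH. The part of these lists in the members' values was not tested.

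In young mice the same comparison called no member at an adjusted p of 0.1 (limma), none at an unadjusted p under 0.05, and none by the other tests. Over all genes the shares were 0% at the adjusted threshold, 9.64% at the unadjusted and 12.9% without overlap, which held for 0 members. Tmem119 lay lowest, at -0.63 log2 units in young EE against young SH (95% CI -1.41 to 0.16), and Itgam was at -0.47 (95% CI -1.28 to 0.34). Of the 8 members 7 had a value below 0 and 1 above it, where 49.4% of all genes were above 0, and the median was -0.17 against -0.00608 over all genes. Without young EE library 1 the count over all genes was 292 in place of 0, while that of members stayed 0. Other lists lay to 1 side in the same comparison, with 11 of 11 oligodendrocyte markers below 0 (median -0.72) and 5 of 5 erythrocyte genes below 0 (median -1.65), while 13 of 15 ventral hippocampus markers were above 0 (median 1.27), and no gene of these lists was called. The oligodendrocyte list summed to 1677 to 3340 RPM in young EE, against 1245 to 4765 RPM in young SH, the erythrocyte list to 867.2 to 2131 RPM in young EE, against 2308 to 5423 RPM in young SH, and the ventral list to 832.4 to 864.1 RPM in young EE, against 375 to 854.9 RPM in young SH. In the erythrocyte list both copies of each globin gene had equal values, so its 5 genes are not 5 separate measurements. The part of these lists in the members' values was not tested.

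The difference of the housing effects between ages was tested as an interaction, which called no member (smallest adjusted p 0.426, for Itgam) and 0% of all genes. The count over all genes was 180 by the likelihood ratio test, 301 by DESeq2 and 332 by limma without young SH library 2, and no member was called in any of these. The EE against SH value of Itgam was 1.12 log2 units higher in aged than in young mice (95% CI -0.03 to 2.26). That of Tmem119 was 1.04 higher (95% CI -0.06 to 2.15). For this difference 6 of 8 members were above 0, against 52.9% of genes. No member had an unadjusted p under 0.05 by limma, against 12.1% of genes, while 1 did by the quasi-likelihood test and by DESeq2, and 2 by the likelihood ratio test. The 4 libraries of high dorsal minus ventral score lie in aged EE and young SH, the groups that enter this difference with a positive sign. Of 15 ventral hippocampus markers 13 were below 0 (median -1.81). All 11 oligodendrocyte markers (median 1.11) and all 10 hippocampal excitatory neuron markers (median 0.89) were above 0. No gene of these lists was called, and their part in the members' values was not tested.

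**Figure D2:**
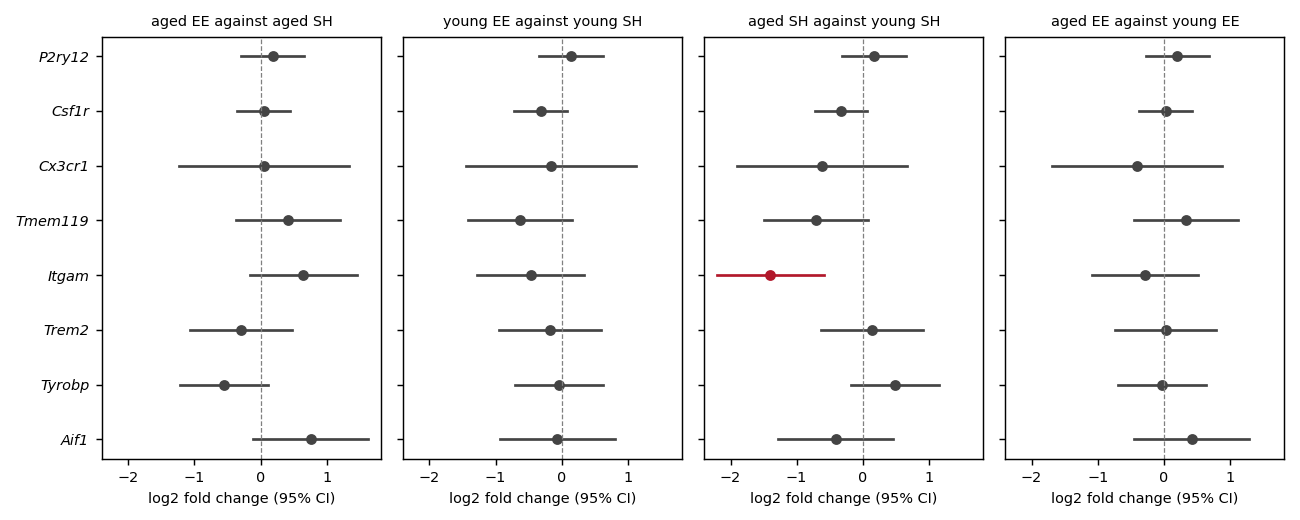
Log2 fold changes of the 8 tested members (points, x axis) with 95% confidence intervals from limma (lines) in the 4 pairwise comparisons, with 0 marked by a dashed line. Itgam in aged SH against young SH, at -1.40, is the only member past the adjusted threshold (red).

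The age comparison in standard housing gave the only call. Itgam fell in aged SH to 0.870 ± 0.260 RPM, against 2.65 ± 1.06 RPM in young SH (SD, n = 3 each), a log2 fold change of -1.40 ± 0.37 (SE, 95% CI -2.21 to -0.59, adjusted p = 0.0975 from limma). It was the 1 member of 8 called, 1 of 8 without overlap and 1 of 8 under an unadjusted p of 0.05. Over all genes 2.91% were called, with 1.73% called lower, while 25% did not overlap and 19.4% had an unadjusted p under 0.05. The call was kept by the edgeR quasi-likelihood test (adjusted p = 0.0983) and by DESeq2 (adjusted p = 0.03365). It was lost in 18 of the 28 alternatives, among them 9 of the 12 fits that left out a library, where the value stayed between -1.76 and -1.18. Without aged SH library 3 or young SH library 1 or 3 the adjusted p was 0.250, 0.206 and 0.346, and with the dorsal minus ventral score in the fit the value was -0.84 (adjusted p = 0.320). Young SH libraries 1 and 3 are among the 4 libraries of high score, and no aged SH library is. Without those 4 libraries, which leaves 1 library in young SH, the value was -0.70. The blood leukocyte list summed to 8.37 to 14.0 RPM in aged SH, against 28.7 to 50.9 RPM in young SH, most of it Ly6c2, a surface antigen of monocytes with a near-identical paralog, which was also called lower in aged SH (log2 -2.16, adjusted p = 0.0923). Ccr2 and Cd3e stayed at or below 0.442 RPM in both groups. Erythrocyte genes, 5 of 5 measured and 2 called lower, with equal values in both copies of each globin gene, summed to 1443 to 2028 RPM in aged SH, against 2308 to 5423 RPM in young SH. The part of these cells in the Itgam difference was not tested. For hippocampal position only the fits above were run, and position as a cause was not tested.

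Of the other members Tmem119 had -0.71 log2 units in aged SH against young SH (95% CI -1.49 to 0.08, adjusted p = 0.300) and Csf1r -0.33 (95% CI -0.73 to 0.07). Tyrobp lay at 0.49 (95% CI -0.18 to 1.154), above 0 with P2ry12 and Trem2, which makes 3 of 8 against 49.7% of genes. In enriched housing no member passed between ages by limma, by adjusted or unadjusted p, and none was free of overlap, against 0%, 7.93% and 16.6% of all genes, nor by the other tests, and 5 of 8 had a value above 0, against 50% of genes. Itgam was there at -0.28 (95% CI -1.09 to 0.52) and Aif1 at 0.42 (95% CI -0.45 to 1.29). Averaged over housing, aged against young called no member by limma (0% of genes), and 1 of 8, Itgam, had an unadjusted p under 0.05 (16.2% of genes). Itgam stood at -0.84 ± 0.26 (SE, adjusted p = 0.181). The count over all genes was 933 by the likelihood ratio test and 1016 by DESeq2, which both called Itgam, and 830 by limma without young EE library 2, which called no member. All members overlapped between ages, where 0.548% of genes did not, and 4 of 8 were above 0 (51.3% of genes). Averaged over age, EE against SH called none by any test and none at an unadjusted p under 0.05, against 0% and 6.17% of genes. No member was free of overlap between EE and SH (0.114% of genes), and 3 of 8 were above 0 (51.3% of genes). These comparisons share libraries, and their values are given side by side only.

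Across the 12 libraries 22 of the 28 pairs of tested members correlated positively on the log2 scale, with a median r of 0.20. The highest was Csf1r with Itgam (r = 0.76), followed by Cx3cr1 with Itgam (0.64) and Itgam with Tmem119 (0.61). Trem2 with its adaptor Tyrobp reached 0.51. The pairs of Tyrobp with Cx3cr1 (-0.52) and Itgam (-0.43) were the lowest. Set against the mean of the other 7 members, Csf1r was highest (0.75) and Tyrobp alone was negative (-0.26). These correlations are descriptions over 12 libraries that differ in depth and in the score of dorsal minus ventral markers.

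**Figure D3:**
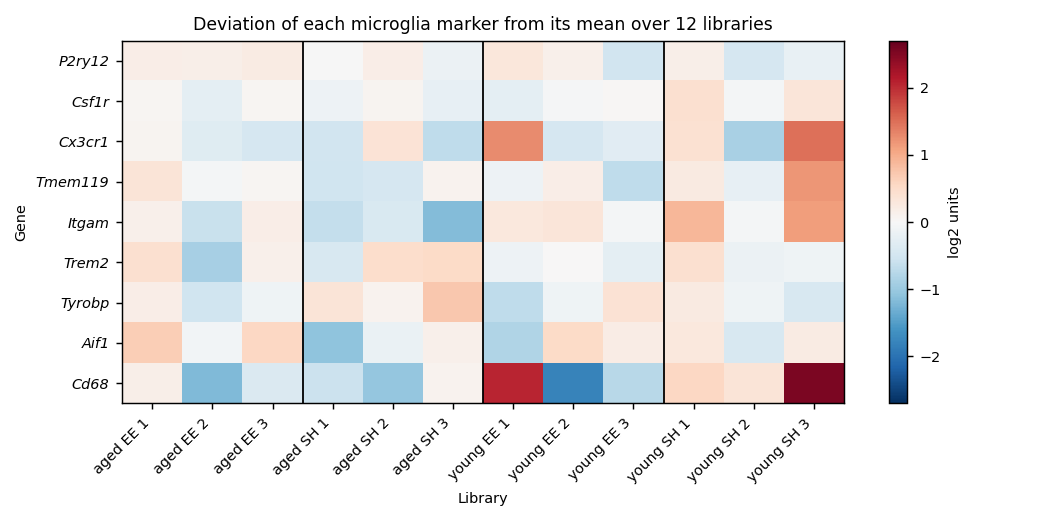
Deviation of each member (rows) from its own mean over the 12 libraries (columns, grouped by age and housing), in log2 units of scaled reads. Young EE library 1 and young SH library 3 stand out in Cx3cr1 and Cd68, and young SH library 3 also in Itgam and Tmem119.

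The pair formed by library 1 of young EE and library 3 of young SH was singled out after its values were seen. Genes other than the 9 members were also high in both. Those given here were taken from the genes of highest correlation with Cd68 or Cx3cr1 over the same libraries. Their high levels in this pair and their high correlations therefore follow from that choice. The share of all genes that were high in both was not counted. Cd9, a tetraspanin, had 9.14 RPM in young EE library 1 and 18.5 RPM in young SH library 3, against at most 3.13 RPM elsewhere. Its correlation with Cd68 was 0.94, and that of the cytoskeletal actin gene Actg1 was 0.96 (356 and 349 RPM in these libraries, at most 220.8 RPM elsewhere). Gphn, a scaffold of inhibitory synapses, correlated with Cx3cr1 at 0.94. The part of these libraries' composition in the Cx3cr1 and Cd68 levels was not tested.

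Genes most like the mean of the 8 tested members were sought by Pearson's r over the 12 libraries among 13130 other tested genes, as a description. The highest were 1300002E11Rik (0.90), Sec14l1 (0.88), Gpr12 (0.88), Hepacam (0.87), Tdo2 (0.87), D14Ertd668e (0.86), Dclk2 (0.86), Cap1 (0.85), Ddc (0.85) and Prosapip1 (0.85). None of them is in the microglia lists. Tmem200c (-0.93), Nr6a1 (-0.93) and Kcnmb2 (-0.91) were the lowest. The 37 tested genes of a further list of microglia genes had a median r of 0.37, against 0.03 over all genes, and 35 of 37 were positive, against 53% of all genes. The log2 of this list's summed level correlated with the mean of the members at 0.66 over the 12 libraries, and lists of other cells and of position did so too, with 0.69 for dorsal hippocampus, 0.63 for hippocampal excitatory neuron and 0.57 for oligodendrocyte markers, and -0.79 for ventral markers.

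The mean of the 8 tested members was highest in the 4 libraries of high dorsal minus ventral score. There it was 6.76 to 7.13 log2 units, against 6.30 to 6.75 in the other 8, so the ranges did not overlap. Within the other 8 libraries the correlation with the position score was 0.01. With the score added to the limma fit of all genes, beside the group means, all 8 members had a positive slope, against 51% of genes. The median was 0.22 log2 units per unit of score against 0.00369 over all genes. Such a slope rests mainly on aged EE and young SH, where library 2 scored -0.10 and -1.02, far below libraries 1 and 3. Within the other groups the score varied little, from -0.74 to -0.35 in aged SH and -0.77 to -0.27 in young EE. None of the 8 slopes passed an adjusted p of 0.1, which 0.891% of genes did. Itgam had the smallest p (slope 0.40 ± 0.11 SE, adjusted p = 0.158), then Cx3cr1 (0.56 ± 0.20, adjusted p = 0.280).

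**Figure D4:**
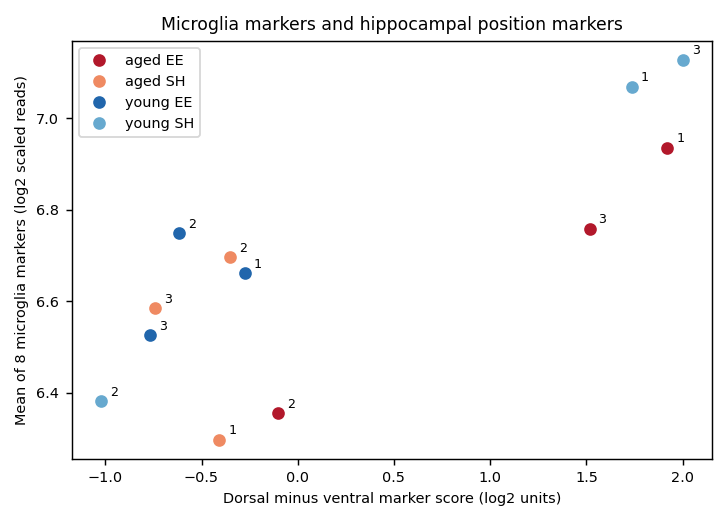
Mean of the 8 tested members (y axis, log2 scaled reads) against the dorsal minus ventral marker score (x axis, log2 units) for each numbered library, colored by group. The 4 libraries at a score above 1.5 lie at 6.76 or higher, and the other 8 at 6.75 or lower.

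Of 17 ligands and partners of the members, 15 were tested, and none was called in any of the comparisons by limma. Cx3cl1, the ligand of Cx3cr1, had 57.5, 68.6 and 59.5 RPM in aged EE, against 33.1, 56.6 and 33.0 RPM in aged SH. All 3 aged EE libraries lay above all 3 aged SH libraries (0.64 ± 0.22 SE log2 units, unadjusted p = 0.0120, adjusted p = 0.516 from limma). Over all genes 17.1% did not overlap in this comparison and 8.90% had an unadjusted p under 0.05. Itgb2, the beta subunit that pairs with Itgam, had 0.283, 0.881 and 0.442 RPM in aged SH, against 1.12, 1.12 and 1.46 RPM in young SH. Its fold change of -1.08 ± 0.35 log2 units had the same direction as that of Itgam but did not pass (adjusted p = 0.140). Il34, a neuronal ligand of Csf1r, averaged 70.4 RPM and Csf1, the other ligand, 5.42 RPM. Their differences in aged SH against young SH were 0.56 (adjusted p = 0.297) and -0.45 (adjusted p = 0.373). Cd200, a neuronal ligand that restrains microglia, had -0.95 log2 units in aged against young mice (adjusted p = 0.220), with its highest levels in young EE library 1 and young SH library 3, at 24.8 and 17.8 RPM. Its receptor Cd200r1 had no more than 0.600 RPM in any library. Apoe (1354 RPM), Clu (667.3 RPM), Cd47 (303 RPM) and Sirpa (103.9 RPM) were the most abundant, with wide ranges over the libraries for Clu (80.0 to 1075 RPM) and Sirpa (37.4 to 195 RPM), and Entpd1, Inpp5d, Irf8, Sykb, C3, Sfpi1 and Hcst averaged 10.6 RPM or less.

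The further list of microglia genes held 40 names, of which 37 were tested and none called in any comparison. In young EE against young SH 31 were below 0 and 6 above (median -0.30). In aged EE against aged SH 23 were above 0 and 14 below (median 0.05). For the interaction 29 were above 0 and 8 below (median 0.44). There 8 of the 37 had an unadjusted p under 0.05 by limma, against 12.1% of all genes. The proteases Ctss and Lgmn averaged 82.2 RPM and 58.7 RPM, and Rgs10 averaged 52.4 RPM. In aged against young mice Mertk, a receptor for dying cells, was at -1.13 (adjusted p = 0.182) and the Fc receptor gene Fcgr3 at 0.45 (adjusted p = 0.212). Siglech was at -1.19 (adjusted p = 0.247) and Coro1a at -0.66 (adjusted p = 0.248). The activation list had 17 tested genes of 22 and no call. Its lysosomal members Ctsd (622.5 RPM) and Ctsb (299.9 RPM) and the protease inhibitor Timp2 (379.1 RPM) were the most abundant, then Ank (184.5 RPM). Gpnmb (0.54, adjusted p = 0.241), Cd9 (-1.61, adjusted p = 0.270), Lpl (-0.37, adjusted p = 0.282) and Ctsd (0.54, adjusted p = 0.394) had the smallest p by age, and Ctsd stood at 2003 RPM in aged SH library 2, against 314.6 to 603.8 RPM in the other libraries.

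Of 10 tested inflammatory genes out of 22, 1 passed the threshold, in aged SH against young SH, where 2.91% of all genes did. Il18, a cytokine released after inflammasome activation, was higher in aged SH, with 63.9, 69.3 and 82.1 RPM against 42.7, 37.5 and 30.6 RPM in young SH. The libraries did not overlap, which held for 25% of all genes, and the log2 fold change was 0.96 ± 0.20 (SE, adjusted p = 0.0726 from limma). In 28 alternatives the value stayed between 0.82 and 1.07, and 14 kept the call, among them 3 of the 12 fits that left out a library (adjusted p 0.0185 to 0.292). In the enriched groups its levels were 67.9, 60.2 and 54.3 RPM in aged EE, against 46.9, 73.7 and 63.2 RPM in young EE, and these overlapped (0.007 log2 units). All young EE libraries also lay above all young SH libraries, which were the lowest group (0.72 ± 0.20 SE, adjusted p = 0.387 from limma). Over all genes 12.9% did not overlap there. The interaction of Il18 was -0.95 (adjusted p = 0.276 from limma). Ptgs1 was at 0.65 (adjusted p = 0.203) and Nfkbia at 0.93 (adjusted p = 0.299) in aged SH against young SH. Casp1, the protease that matures Il18, was at 0.78 (adjusted p = 0.391), and Ccl3 was at 0.58 in aged against young mice (adjusted p = 0.253). The border macrophage genes Cbr2, Cd163, Pf4 and F13a1 averaged 0.828 to 1.17 RPM, and none of 5 tested genes of that list was called.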

How the data were processed

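The authors prepared SAGE tags from hippocampal RNA, mapped them to the mouse genome (mm9), counted them over transcripts and scaled them with edgeR. The signal the authors deposited is a scaled read number, with its own scale in each library. Dividing by the value of 1 read returned whole reads, within 0.1 read, for 100% of values below 1000. In young EE library 3 a read is worth 1.00932, close to 1, and 34.6% of its values were whole when 1 was used instead. The 12 deposited tables repeat the same library columns, so 1 was used and 11 were not. Their remaining columns hold the authors' own log2 ratios, p-values, FDR and group averages, and these were not used. Totals ranged from 6928733 to 16035094 reads.

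Each gene name was represented by its transcript with the highest summed signal, and filterByExpr of edgeR (4.0.16, minimum count 10) kept 13138 genes. The main test was limma (3.58.1, R 4.3.3) with an intensity trend on log2 of reads scaled by TMM to the mean library size plus 2, over all 12 libraries, with Benjamini-Hochberg adjustment over all genes and a threshold of 0.1. Labels give separate biological replicates. The quasi-likelihood and likelihood ratio tests of edgeR and DESeq2 (1.42.0) were run on the recovered reads as alternatives. Other alternatives changed scaling, filter, transcripts, threshold, pseudocount and libraries. The test was tried on simulated counts. Members and lists were chosen with earlier results of these data known. Beside the members, all ligands and partners were named, and from each further list the 4 genes of highest level, those past the threshold and the 4 of smallest p by age. A gene that this rule names is not reported here.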

Additional observations from a re-analysis of the deposited data

Results flagged for a closer look

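Rgs10, a regulator of G protein signaling from the further list of microglia genes, was singled out because its libraries separated by housing at both ages, with EE above SH in aged mice and below SH in young mice. It had 66.5, 65.5 and 67.7 RPM in aged EE, against 41.6, 53.6 and 40.2 RPM in aged SH, and 44.0, 47.2 and 46.2 RPM in young EE, against 59.9, 47.8 and 49.0 RPM in young SH. Every aged EE library lay above every aged SH library, and every young EE library lay below every young SH library, although by only a small margin to young SH library 2. Over all genes 17.1% did not overlap in aged EE against aged SH, and 12.9% in young EE against young SH. The share that separates in opposite directions at both ages was not counted. All named genes were screened for this pattern, so the direction of the difference below follows from the choice. Neither housing difference passed, at 0.57 in aged mice (adjusted p = 0.516) and -0.18 in young mice (95% CI -0.51 to 0.15, adjusted p = 0.714). The difference of the housing effects was 0.754 log2 units (SE 0.21), with an adjusted p of 0.267 from limma, which did not pass the threshold.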

How the results depend on the processing

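The count of members called in aged SH against young SH was 1, and it became 0 with no filter, with a mean of at least 20 reads, at a threshold of 0.05, with only the groups compared, with only 8 libraries (2 per group), with the replicate block, with the position score in the fit, at a pseudocount of 0.5, and without the 4 libraries of high score, an alternative chosen after seeing the data that leaves 1 library in 2 groups, assumed to vary like the others. Leaving out each library gave counts of 0 to 1. For aged against young averaged over housing the count was 0, and it was 1 (Itgam) by the likelihood ratio test and by DESeq2. The causes were not tested. The other comparisons kept a count of 0 under all alternatives. No called value changed sign, while 118 of 1544 alternative values, none of them called, had the other sign, in 36 of 56 gene results. Counts over all genes in aged SH against young SH ranged from 0 to 1168 (the highest without young EE library 1), against 382. They ranged from 0 to 292 in young EE against young SH, 0 to 332 for the interaction, 0 to 1016 for aged against young, 0 to 101 in aged EE against aged SH, 0 to 49 in aged EE against young EE and 0 to 4 for EE against SH.

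Replicate numbers are shared by the groups, but only 5 of 18 same-numbered pairs correlated above 0.1 (-0.234 to 0.211), and libraries matched best with their own number in 13 of 36 cases. With the replicate block, the count of members was 0 and that of all genes 114 for aged SH against young SH, and Itgam had an adjusted p of 0.126.

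Cd68 had 0 to 36 reads and Itgam 4 to 41. Their relative spread over libraries, 138% and 50.3%, was above the counting error of 33.6% and 21.5%.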
